A study of Mus musculus with 12 samples.

Results

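Brown adipose tissue (BAT) from mice lacking LR11 was compared with BAT from WT mice on 6 arrays, 3 per genotype, out of the 12 arrays of the study. The members were taken from the source label of each sample, Lr11 -/- BAT against WT BAT. The other 6 arrays hold subcutaneous white adipose tissue (scWAT) of the same genotypes, again 3 and 3, and are used here only beside a BAT result. All animals were male C57Bl6/J mice, 12 weeks of age, fed a high-fat diet with 60% of its calories from fat. Lr11 -/- mice carry a whole-body knockout of Sorl1, the gene for LR11, so no tissue in these animals has an intact gene, and the WT mice were littermates. The labels disagree on the length of the diet, 4 weeks in one field and from weaning in another. They do not say whether each array is a separate animal, nor whether a BAT and an scWAT array share a mouse, so the p-values below measure only the spread between these samples.

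LR11, also called SorLA, is a sorting receptor built from VPS10p and LDL receptor domains, and its extracellular part is shed into the blood. The study asked whether it restrains heat production in fat. In brown adipocytes, noradrenaline acts on β-adrenergic receptors, raises cAMP, starts lipolysis and induces genes such as Ppargc1a, while the mitochondrial protein UCP1 turns fatty acid oxidation into heat. Bone morphogenetic proteins (BMPs) act through receptors and Smad proteins to promote the same programme.

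Each value below is a log2 signal relative to the 75th percentile of its own array, so that 0 is the level of a fairly bright probe, and the 3 values of a group follow the order replicate 1, 2 and 3. Of 55681 distinct probes, 29930 cleared background in every replicate of one or both genotypes and were tested, and 14005 genes were read from the brightest of their tested probes. Of those genes 18 passed an adjusted p of 0.05 in limma (0.129%). Between 32377 and 36353 spots per BAT array were well above background and none was saturated, and the number of arrays limits the precision. All 8 brown adipocyte markers, Ucp1 and Cidea among them, cleared background on all 6 arrays. Of 5 white adipocyte markers, 2 (Lep and Agt) cleared it on all 6 arrays, Hoxc8 on 3, and 2 (Hoxc9 and Tcf21) on none.

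Skeletal muscle RNA set 3 of the 6 arrays apart and is given first, since it lies unevenly across the genotypes. Averaged over the 21 tested muscle genes, the level was 5.62, -2.02 and 5.68 on the WT arrays and 5.03, -1.81 and -1.72 on the Lr11 -/- arrays. WT replicates 1 and 3 and Lr11 -/- replicate 1 were thus high, and the other 3 arrays were far lower. Acta1, the actin of skeletal muscle fibres, read 7.91, -0.91 and 7.29 in WT and 6.85, 0.58 and -0.55 in Lr11 -/- BAT. Tnnt3, a troponin of fast fibres, read 7.27, -4.49 and 6.59 against 6.27, -3.90 and -3.76. Pvalb, a calcium buffer of fast fibres, read 7.33, -1.53 and 7.01 against 6.66, -1.44 and -1.02. In each case the genotypes overlapped, with high and low arrays on both sides. All 21 means were lower in Lr11 -/- BAT, with a median difference of -2.72 against a median of 0.05 over all tested genes, yet none of the 21 reached an unadjusted p of 0.05 in limma and the smallest p was 0.24. Another 18 muscle genes, Ckm, Myh4 and Actn3 among them, were above background only on some arrays of each genotype and so were not tested. As these are bulk samples, fewer cells of a type and less RNA per cell cannot be told apart. No muscle gene is used as a result below, and counts from a fit that holds the muscle mean as a covariate are given where they differ. In that fit 7.7% of all tested genes reached an unadjusted p of 0.05.

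**Figure D1:**
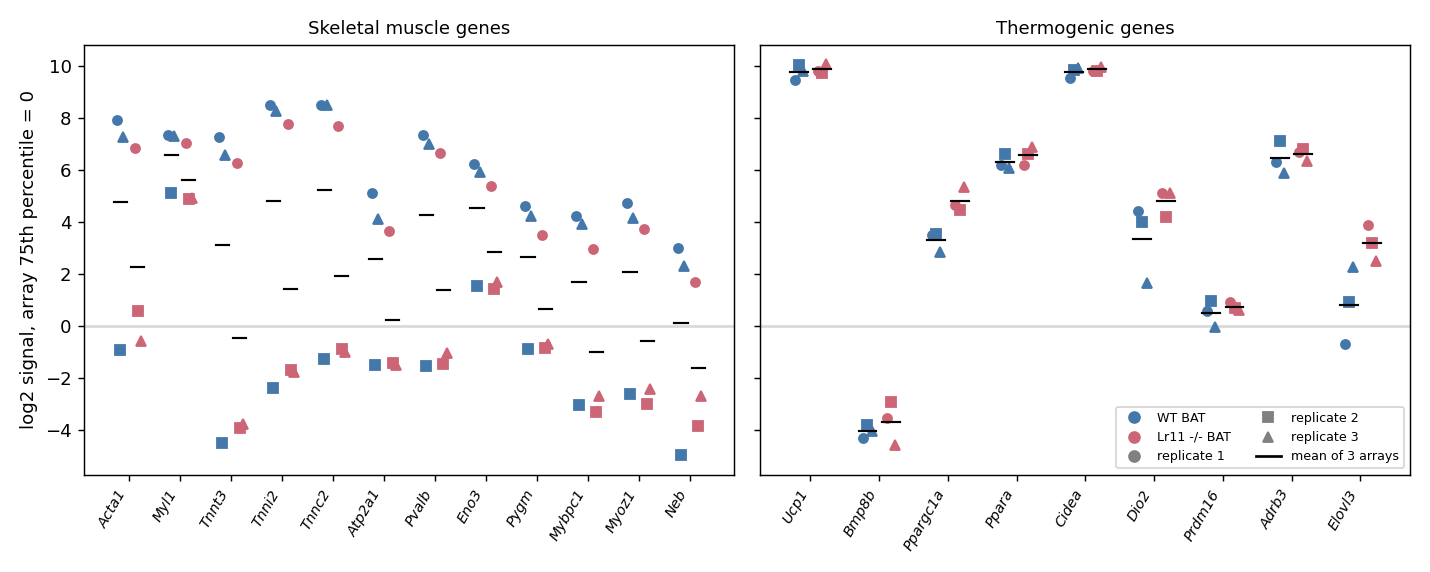
Log2 signal relative to the array's 75th percentile for 12 skeletal muscle genes (left) and the 9 thermogenic genes (right) on each of the 6 BAT arrays, WT in blue and Lr11 -/- in red, with the symbol shape giving the replicate and the bar the mean of 3 arrays. Muscle genes split the arrays 3 and 3 across the genotypes, while Ucp1 and Cidea lie close together on all 6 arrays.

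Sorl1 itself was read by a single tested probe. The WT arrays gave 0.71, 1.21 and 0.11 (mean 0.68 ± 0.55, SD, n = 3) and the Lr11 -/- arrays -3.93, -2.45 and -2.48 (mean -2.96 ± 0.85). The signal was 12.4-fold lower in Lr11 -/- BAT and no array crossed over, as the labels require, although all 3 knockout arrays remained well above background. The log2 difference of -3.63 (SE 0.45) just missed the threshold after adjustment over all probes (adjusted p = 0.054, limma). It passed with the muscle mean as a covariate (-4.03, adjusted p = 0.013, limma) and in the fit to all 12 arrays (adjusted p = 0.025, limma). An exact permutation test of the 6 values gave a two-sided p of 0.1, the smallest that 3 against 3 allows. Where the probe lies relative to the deleted part of the gene was not looked up.

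Across the 29930 tested probes, 40 passed an adjusted p of 0.05 in limma (0.134%), 18 of them higher (0.0601%) and 22 lower (0.0735%) in Lr11 -/- BAT. They comprised 25 probes for 24 named genes and 15 probes without a symbol, and the genotypes did not overlap at any of the 40. Without overlap lay 3711 probes (12.4%), with 7.76% of all probes higher and 4.64% lower, and 2310 reached an unadjusted p of 0.05 (7.72%), 1295 higher (4.33%) and 1015 lower (3.39%). With the muscle mean as a covariate 27 probes were called, and the adjusted p (limma) rose past 0.05 for 12 of the named genes described below, to 0.052 for Ttc36, 0.057 for Lrba, 0.059 for Cdsn and Xlr3a, 0.062 for Gfer, 0.082 for Ermard, 0.11 for Cnr1, Dlk1, Glyctk, Plcxd1 and 9030025P20Rik, and 0.14 for Zfp945. With the array series as a block, which holds replicate 1 of both genotypes apart from replicates 2 and 3, 6 of them missed the threshold, namely Cnr1 (0.055), Ermard (0.056), Xlr3a (0.056), Dlk1 (0.067), Glyctk (0.067) and Plcxd1 (0.068), all adjusted p in limma. None of the 24 is on the thermogenic or brown identity lists below. Among them are a lipoprotein component, a retinol carrier, a cytokine and a cannabinoid receptor.

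Apoc3, an apolipoprotein that slows the breakdown of triglyceride-rich particles, rose the most of those measured in both genotypes. It read -2.22, -1.67 and -1.93 in WT and 1.96, 2.18 and 1.92 in Lr11 -/- BAT, a difference of 3.96 (SE 0.18) or 15.6-fold (adjusted p = 0.0025, limma). The spread within a genotype was small beside that gap. Rbp4, which carries retinol in blood and is secreted by adipocytes, read 4.77, 5.49 and 4.72 against 7.57, 7.40 and 7.56, a rise of 2.52 (SE 0.23) or 5.73-fold (adjusted p = 0.011, limma). All 3 Lr11 -/- arrays lay within a narrow range. Il18, a cytokine of the interleukin-1 family, read -2.42, -2.54 and -2.45 against 0.14, -0.16 and 0.26, a rise of 2.55 (adjusted p = 0.0036, limma). Cnr1, the cannabinoid receptor CB1, which favours fat storage, read -3.21, -2.87 and -2.70 against -0.77, -1.2 and -0.47, a rise of 2.12 (adjusted p = 0.031, limma). Each of these 4 genes was higher on every Lr11 -/- array than on any WT array.

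Further rises were seen in genes with little known role in brown fat. Gfer, a sulfhydryl oxidase needed for protein import into mitochondria, read 0.23, 0.56 and 0.26 against 1.69, 1.78 and 1.81, a rise of 1.41 (adjusted p = 0.03, limma). Morn4, a protein with MORN repeats, rose by 2.39 and 2.32 at 2 separate probes (both adjusted p = 0.009, limma). Ttc36, a small tetratricopeptide repeat protein, rose by 2.30 (adjusted p = 0.011, limma), with only 1 of 3 WT arrays above background. The uncharacterised 9030025P20Rik rose by 1.73 (adjusted p = 0.033, limma). Ube2ql1, a ubiquitin-conjugating enzyme homologue, was not well above background in any WT array and was at least 6.67-fold higher in Lr11 -/- BAT (adjusted p = 0.0052, limma). For Xlr3a, an X-linked gene with close copies, the same bound was at least 1.82-fold (adjusted p = 0.031, limma). In these bounds the dim group is set to the lowest signal that was called above background on its arrays.

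On the lower side, Nxpe4, a member of the neurexophilin-like family, read -0.77, -0.38 and 0.03 in WT BAT and was above background on no Lr11 -/- array, at least 17.9-fold lower (adjusted p = 0.0033, limma). Cdsn, corneodesmosin, an adhesion protein of skin, read 3.39, 2.79 and 1.75 against -2.96, -1.55 and -2.95, and fell by 5.13 on the log2 scale (SE 0.52), or 35.1-fold (adjusted p = 0.02, limma). It was present on all arrays and is not a fat gene by its known role. Cmtm8, a MARVEL-domain membrane protein, read 1.17, 1.73 and 1.56 against -0.73, -0.58 and -0.57, and fell by 2.11 (adjusted p = 0.011, limma). Dlk1, known as preadipocyte factor 1 for its brake on adipocyte differentiation, read -1.36, -1.31 and -1.59 against -2.84, -3.12 and -2.69, and fell by 1.46 (adjusted p = 0.041, limma). A brighter Dlk1 probe was lower by -1.29 without passing (adjusted p = 0.27, limma). Dnase1l2, an endonuclease of the DNase I family, fell by 1.93 (adjusted p = 0.011), Plcxd1, with a phospholipase C-like domain, by 1.5 (adjusted p = 0.046) and Glyctk, glycerate kinase, by 1.27 (adjusted p = 0.043), all in limma.

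Apart from Morn4, each named gene was called at only 1 probe. Apoc3, Rbp4, Il18, Cnr1, Nxpe4 and Cdsn were among those with no other tested probe. Where a gene had others, they shared the difference to varying degrees or not at all. Btbd9, a BTB-domain protein, rose by 2.58 at 1 probe (adjusted p = 0.0033, limma), while its other probes differed by 0.00 and -0.02. Lrba, a protein of vesicle traffic, was at least 1.63-fold lower at a dim probe (adjusted p = 0.031, limma), with -0.07 and -1.14 at the others. Zfp944, a zinc finger protein, was at least 2.48-fold lower at 1 probe (adjusted p = 0.011, limma) against -0.05 and -0.59 elsewhere. Its neighbour Zfp945 rose by 1.94 (adjusted p = 0.043, limma), with 1.56 and 0.52 at its other probes. Ermard, named for RNA degradation at the endoplasmic reticulum, rose by 1.52 (adjusted p = 0.033, limma), with 1.76 at another probe and -0.12 at the brightest. Vmn1r216, a pheromone receptor gene, rose by 2.53 (adjusted p = 0.037, limma). Xlr3a, Vmn1r216 and the Zfp genes belong to families with near-identical copies, which a probe may not separate. Just past the threshold, apart from Sorl1, lay Ppcdc, an enzyme of coenzyme A synthesis, which was at least 1.61-fold lower (adjusted p = 0.051), and Tmem17, a protein of the ciliary membrane, with a difference of -1.37 (adjusted p = 0.056), both in limma.

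**Figure D2:**
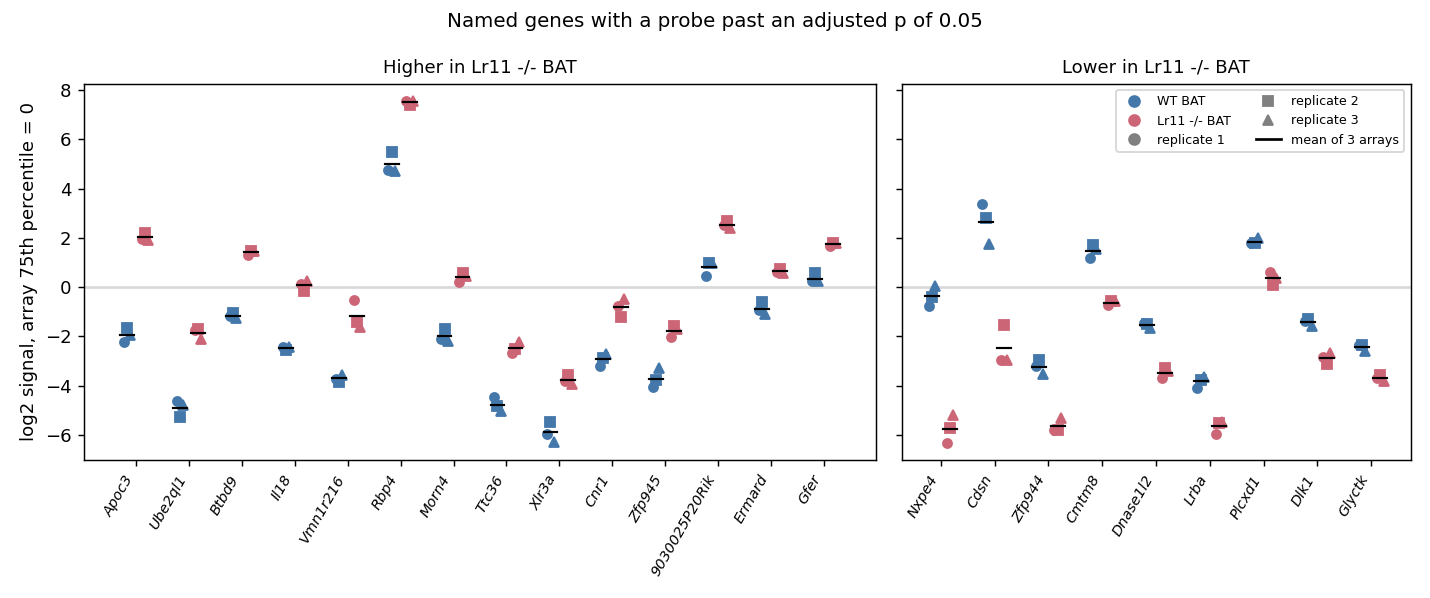
Log2 signal relative to the array's 75th percentile, on each of the 6 BAT arrays, for 23 of the 24 named genes with a probe past an adjusted p of 0.05, 14 higher (left) and 9 lower (right) in Lr11 -/- BAT; WT in blue, Lr11 -/- in red, the symbol shape giving the replicate and the bar the mean of 3 arrays. No gene has overlapping genotypes.

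Of the 15 called probes without a symbol, 8 read long intergenic transcripts that the array design names by their mm9 coordinates. The probes lay in chr17:22420025-22457650, chr17:22335458-22466521 and chr17:22013350-22095775, all on the reverse strand, and in chr2:50152329-50289487 on the forward strand. All 8 were lower in Lr11 -/- BAT. At one probe of the longest chromosome 17 transcript the WT arrays gave -0.93, -0.62 and -0.29 and the Lr11 -/- arrays -3.85, -3.70 and -3.90, a fall of 3.20 on the log2 scale (adjusted p = 0.0033, limma). The 3 regions on chromosome 17 overlap or lie close together, so their 7 probes are not independent of each other.

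The calls were unevenly spread over the genome. Chromosome 17 held 15 of the 40 called probes, chromosome 9, which carries Sorl1, held 7, and chromosome 19 held 3. Counted over genes, 128 of 786 tested genes on chromosome 9 reached an unadjusted p of 0.05 in limma, 16.3% against a background of 7.85% over all tested genes. The share was 12% of 716 genes on chromosome 17 and 10.4% of 498 on chromosome 19, and between 5.17% and 9.24% on every other chromosome. Leaving out Sorl1, chromosome 9 stood at 16.2% of 785 genes and all other chromosomes together at 7.35% of 13219. These shares are descriptions, since neighbouring genes are not independent replicates.

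**Figure D3:**
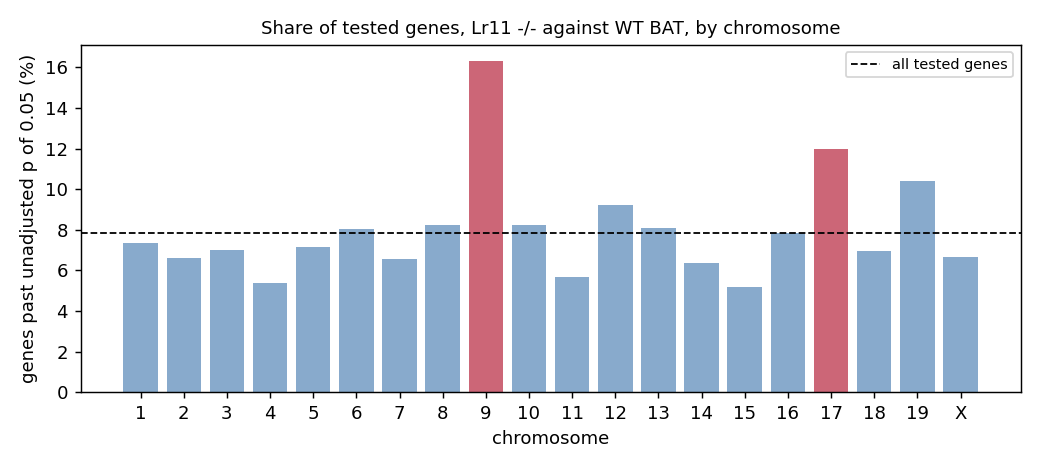
Share of tested genes on each chromosome that reached an unadjusted p of 0.05 (limma, Lr11 -/- against WT BAT), in percent, with the dashed line at the 7.85% of all tested genes. Chromosome 9, at 16.3%, and chromosome 17, at 12%, are drawn in red and stand highest.

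Along chromosome 9 the genes that differed were not evenly placed. In blocks of 50 tested genes counted from Sorl1, 14% of the block before it and 24% of the block after it reached an unadjusted p of 0.05, and 44% of the next block, from 51 to 100 genes away, did so. That block holds Apoc3, Nxpe4 and Il18, and Ttc36 lies in the block before it. The share was 6% over the next 50 genes, 22% beyond that, and 32% between 401 and 450 genes from Sorl1. Cmtm8 lies between 501 and 550 genes away, in a block with 20%. When every chromosome was divided into runs of 50 genes from its start, the median of 269 runs was 8%. The highest, 42%, was the run from C2cd2l to Zbtb16 on chromosome 9, and the next, 28%, the run from Vmn2r111 to Ndufb10 on chromosome 17, which holds Zfp945, Dnase1l2 and Gfer. The next after that, 26%, was the run from 8430431K14Rik to Cyp2c70 on chromosome 19, which holds Rbp4.

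Of the 40 genes nearest to Sorl1, 20 on each side, 6 reached an unadjusted p of 0.05 in limma and none passed adjustment, where the shares are 7.85% over all tested genes and 16.3% over chromosome 9. Both lower and higher means occurred among them. Abcg4, a sterol exporter, differed by -1.27 (adjusted p = 0.065, limma) and Sc5d, the sterol desaturase gene next to Sorl1, by -1.60 (adjusted p = 0.21, limma). Spa17, a sperm protein, differed by -0.63, Olfr907, an olfactory receptor, by -0.82, and Zfp202, a zinc finger protein, by -0.45. Hspa8, the constitutive heat shock protein of the same region, differed by 0.48.

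**Figure D4:**
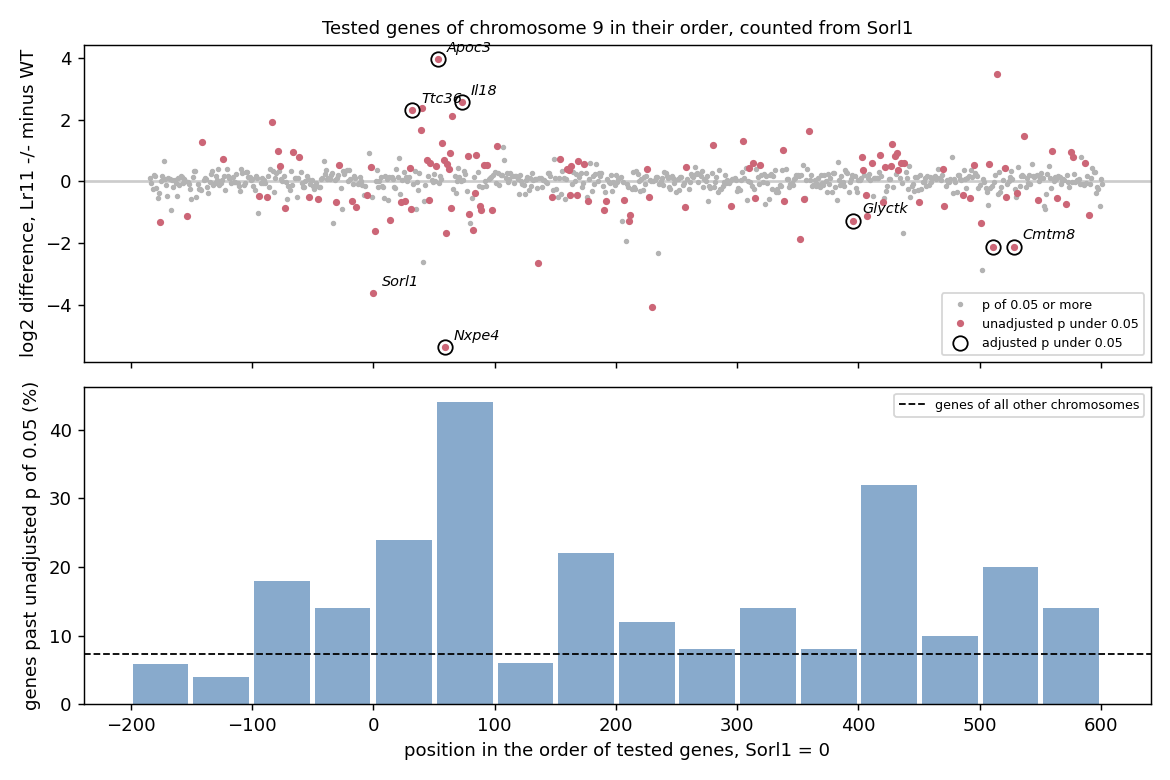
Top, log2 difference between Lr11 -/- and WT BAT for each tested gene of chromosome 9 in gene order counted from Sorl1 at 0, with genes past an unadjusted p of 0.05 in red and those past an adjusted p of 0.05 circled. Bottom, share of such red genes in blocks of 50, in percent, with the dashed line at the 7.35% of all other chromosomes; the highest block, at 44%, lies 51 to 100 genes from Sorl1.

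The thermogenic genes that the study measured by PCR were all higher on average in Lr11 -/- BAT, by small amounts for most, and none passed adjustment. Over the 9 genes the median difference was 0.26 against 0.05 for all tested genes, 0.16 with the muscle mean as a covariate and 0.05 without the 3 arrays of high muscle signal. An unadjusted p of 0.05 was reached by 2, both higher, where the background for higher genes is 4.58%. The list was chosen by the study, so it is no independent evidence of direction. Ppargc1a, the coactivator of mitochondrial biogenesis, read 3.52, 3.55 and 2.84 in WT and 4.66, 4.47 and 5.36 in Lr11 -/- BAT, a difference of 1.52 (SE 0.29, adjusted p = 0.22, limma). Elovl3, a fatty acid elongase induced in active brown fat, read -0.69, 0.93 and 2.26 against 3.89, 3.21 and 2.51, a difference of 2.37 (SE 0.71, adjusted p = 0.47, limma). Both were separated between the genotypes on all 6 arrays. Dio2, which makes active thyroid hormone inside the cell, read 4.44, 4.00 and 1.67 against 5.11, 4.20 and 5.14, a difference of 1.45 (adjusted p = 0.7, limma), with WT replicate 3 far below the other WT arrays.

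Ucp1 differed little between the genotypes. The WT arrays gave 9.45, 10.04 and 9.80 and the Lr11 -/- arrays 9.81, 9.75 and 10.07, a difference of 0.11 (adjusted p = 0.93, limma), with overlapping groups. Cidea, a lipid droplet protein of brown adipocytes, differed by 0.10, Ppara, the nuclear receptor for fatty acids, by 0.26, and Prdm16, a regulator of brown fate, by 0.25. The differences of Adrb3, the β3-adrenergic receptor, and of Bmp8b, a BMP secreted by brown fat, were 0.17 and 0.36. The signs of Ucp1, Cidea, Prdm16, Adrb3 and Bmp8b each turned when an array was left out or the muscle level was adjusted for. In the wider list of 25 genes of brown identity and its regulators, the median was 0.21 and 21 means were higher. An unadjusted p of 0.05 was reached by 3, Ppargc1a, the potassium channel gene Kcnk3 (0.68) and glycerol kinase Gk (1.04), all higher. Over all tested genes 4.58% were higher at that level.

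Genes of β-adrenergic and cAMP signalling went both ways, with 2 higher and 4 lower at an unadjusted p of 0.05 out of 23 and a median of 0.17, where the backgrounds are 4.58% higher and 3.28% lower. These counts were 1 and 5 with the muscle covariate, where the backgrounds are 3.89% and 3.81%. Adcy3, an adenylyl cyclase that makes cAMP, read 0.40, 0.48 and 0.01 against 1.2, 0.63 and 1.15 (0.70, adjusted p = 0.48, limma). Pde4b and Pde4d, phosphodiesterases that degrade cAMP, differed in opposite directions. Pde4b read -0.33, -0.19 and -0.02 against -0.99, -0.96 and -1.26 (-0.89, adjusted p = 0.19, limma), and Pde4d differed by 0.75 (adjusted p = 0.6, limma). Adrb1, the β1-adrenergic receptor, read 2.16, 2.56 and 1.67 against 0.83, 1.53 and 0.61 (-1.14, adjusted p = 0.4, limma). The cAMP-responsive genes Nr4a1 and Sik1 differed by -1.43 and -0.54. Thus Adrb1, Pde4b, Nr4a1 and Sik1 had lower means, while Adcy3 and Pde4d had higher ones. The mean of Adrb3 was slightly higher (0.17), with a sign that turned in some alternatives. None of these passed adjustment.

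Lipid handling genes showed a few higher means. At an unadjusted p of 0.05 in limma, 4.58% of all tested genes were higher and 3.28% lower. Among 12 lipolysis genes, Abhd5, the activator of adipose triglyceride lipase, read 3.21, 3.37 and 3.09 against 4.18, 3.66 and 4.21 (0.79, adjusted p = 0.35, limma), and Mgll, which splits monoglycerides, differed by 0.49 (adjusted p = 0.59, limma). In fatty acid uptake, Lpl, which frees fatty acids from lipoproteins, read 7.51, 7.70 and 7.59 against 8.07, 7.97 and 8.12 (0.45, adjusted p = 0.47, limma), the transporter Slc27a4 differed by 0.37, and Lrp1, a clearance receptor of the LDL receptor family, by -0.38, the 3 of 16 that reached an unadjusted p of 0.05. Elovl5, an elongase of polyunsaturated fatty acids, lay close to the threshold with 2.77, 3.01 and 2.65 against 3.98, 3.89 and 4.05, a difference of 1.16 (SE 0.15, adjusted p = 0.065, limma). Scd1, the stearoyl-CoA desaturase, differed by -0.89, and no other of the 14 lipogenic genes reached an unadjusted p of 0.05. In triglyceride synthesis 3 of 11 genes were higher at an unadjusted p of 0.05, Mogat1 (0.68), Gpam (0.59) and Gk. The counts with the muscle covariate were 1 of 12 in lipolysis, 1 of 16 in uptake and 2 of 11 in triglyceride synthesis, all higher. Over all tested genes that fit gave 3.89% higher and 3.81% lower.

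Genes of the mitochondrial machinery differed little. None of 24 respiratory chain and ATP synthase genes and none of 16 citrate cycle genes reached an unadjusted p of 0.05 in limma, with medians of 0.11 and 0.12. That level was reached by 7.85% of all tested genes, so counts of none in lists this short are little below that share. The differences ran from -0.28 to 0.28 in the chain and from -0.03 to 0.34 in the cycle. Among 18 genes of fatty acid oxidation, Slc25a20, the carnitine carrier, was the only one to reach it (0.41, adjusted p = 0.61, limma). In creatine and calcium cycling, creatine kinase Ckb differed by 0.45 and the creatine transporter Slc6a8 by -0.41. In glucose use, glycogen synthase Gys2 differed by 0.65 and pyruvate kinase Pkm by -0.46. In the fit with the muscle covariate 1 respiratory chain gene was lower at an unadjusted p of 0.05, 1 creatine and calcium gene was lower and none higher, and no gene of fatty acid oxidation or glucose use reached it. That fit gave 3.89% higher and 3.81% lower over all tested genes.

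Among secreted adipose factors, Rbp4 was the only one of 20 to pass adjustment, where 0.0785% of all genes passed as higher. Retn, resistin, read 4.70, 4.28 and 3.21 against 5.19, 4.98 and 4.70 (0.90, adjusted p = 0.64, limma), and Cfd, adipsin, differed by 0.77 (adjusted p = 0.62, limma). Adipoq, adiponectin, differed by 0.23 and Lep, leptin, by -1.02, neither at an unadjusted p of 0.05. Of the 20, 4 were higher and none lower at that level, and 1 was higher with the muscle mean as a covariate. Over all tested genes 4.58% were higher and 3.28% lower, and with that covariate 3.89% and 3.81%. Mest, a gene of adipocyte enlargement, read 0.14, -0.26 and -0.09 against -0.62, -0.84 and -2.31 (-1.19, adjusted p = 0.56, limma).

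BMP and TGF-β signalling was described from ligand to target, since the study asked about this pathway. Among 19 ligands and antagonists, 5 were lower and 1 higher at an unadjusted p of 0.05, against backgrounds of 3.28% lower and 4.58% higher, with a median of -0.05. Gdf15, a stress-induced ligand of the family, read 1.75, 3.06 and 1.19 against -1.41, 0.57 and -2.27 (-3.04, SE 0.76, adjusted p = 0.36, limma). Tgfb2 read -1.54, -1.82 and -1.40 against -2.41, -2.09 and -2.73 (-0.82, adjusted p = 0.36, limma). The activin subunit Inhbb differed by -1.0, Gdf5 by -0.89 and Bmp6 by -0.42. On the antagonist side Chrdl1 had a higher mean (0.76, adjusted p = 0.52, limma). Bmp7, a ligand known for promoting brown adipocyte fate, differed by -0.21. The counts became 5 lower and 2 higher with the muscle covariate, where the backgrounds are 3.81% and 3.89%.

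The tested receptors and Smad proteins differed little, with a median of 0.03 over 15 genes. Bmpr1b, whose protein the study reports as binding soluble LR11, was above background on no BAT array and was not tested. Acvr1c, the receptor ALK7 of adipocytes, differed by 0.55 and Acvr2b, a type II activin receptor, by -0.61, the only ones at an unadjusted p of 0.05. Of 14 target genes 3 were lower and none higher at that level, with a median of -0.36. Over all tested genes 3.28% were lower and 4.58% higher at that level. Smad6, an inhibitory Smad induced by BMPs, read 0.34, 0.64 and 0.53 against -0.90, -0.16 and -0.18 (-0.92, adjusted p = 0.36, limma). Ccn1, a matricellular protein, read 2.75, 2.92 and 2.84 against 0.54, 2.05 and 1.03 (-1.63, adjusted p = 0.29, limma), and Id4, an inhibitor of helix-loop-helix factors, differed by -0.65. Id1, the best known BMP target of that family, differed by -0.38 (adjusted p = 0.77, limma) with overlapping groups. Adjusted for the muscle mean, 5 targets were lower and none higher, and of the receptors and Smad proteins 1 was lower and none higher. Over all tested genes that fit gave 3.81% lower and 3.89% higher.

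Of the 9 tested relatives of LR11 with VPS10p or LDL receptor domains, Lrp1 alone reached an unadjusted p of 0.05, and none did with the muscle mean as a covariate. The shares over all tested genes were 7.85% and 7.7%. Sort1, sortilin, read 2.58, 2.91 and 2.76 against 3.06, 2.91 and 2.93, a difference of 0.22 (adjusted p = 0.81, limma).

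Genes of the acute phase and inflammation were divided, with 6 of 12 means lower and 6 higher in Lr11 -/- BAT and a median difference of -0.30. Of the 12, 6 were lower and 1 higher at an unadjusted p of 0.05 in limma, 58.3% against a background of 7.85%, and none passed adjustment. Il1b, the cytokine interleukin-1β, read -2.93, -2.37 and -1.85 against -5.95, -3.78 and -4.57 (-2.38, adjusted p = 0.31, limma). Cxcl1, a neutrophil chemokine, read -3.32, -2.73 and -1.06 against -5.22, -3.53 and -4.74 (-2.13, adjusted p = 0.47, limma). Each was well above background on 1 of the 3 Lr11 -/- arrays. The other lower genes were the acute phase protein Saa3 (-1.77, above background on 1 Lr11 -/- array), the neutrophil proteins S100a8 (-1.07) and S100a9 (-1.10) and the cytokine brake Socs3 (-0.64), while complement C3 was higher (0.68). Lr11 -/- replicate 2 was the highest knockout array for Saa3, S100a8 and S100a9 and overlapped WT there. With the muscle mean as a covariate, 6 were lower and none higher, where the backgrounds are 3.81% and 3.89%.

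Cell type genes of the immune system differed less evenly. Of 17 macrophage genes only Ccl2, a monocyte chemokine, reached an unadjusted p of 0.05, reading 0.32, 0.50 and 0.86 against -1.80, 0.04 and -1.81 (-1.75, adjusted p = 0.42, limma). That level was reached by 7.85% of all tested genes. Among 11 B and T lymphocyte genes, 3 were lower and 1 higher at an unadjusted p of 0.05, the B cell genes Ms4a1 (-1.79) and Cd79b (-1.0) on the lower side and Jchain, of antibody-secreting cells, on the higher (1.12), where the backgrounds are 3.28% lower and 4.58% higher. Adjusted for the muscle mean, 3 were lower and none higher, where the backgrounds are 3.81% and 3.89%. Ms4a1 was above background on 2 of 3 Lr11 -/- arrays. Cd79a, another B cell marker, was above background on no array. The part of these cells in the inflammatory values was not tested. None of 20 interferon-stimulated genes reached an unadjusted p of 0.05, beside 7.85% of all tested genes. Yet 19 of the 20 means were lower (median -0.48), with overlap at every gene.

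**Figure D5:**
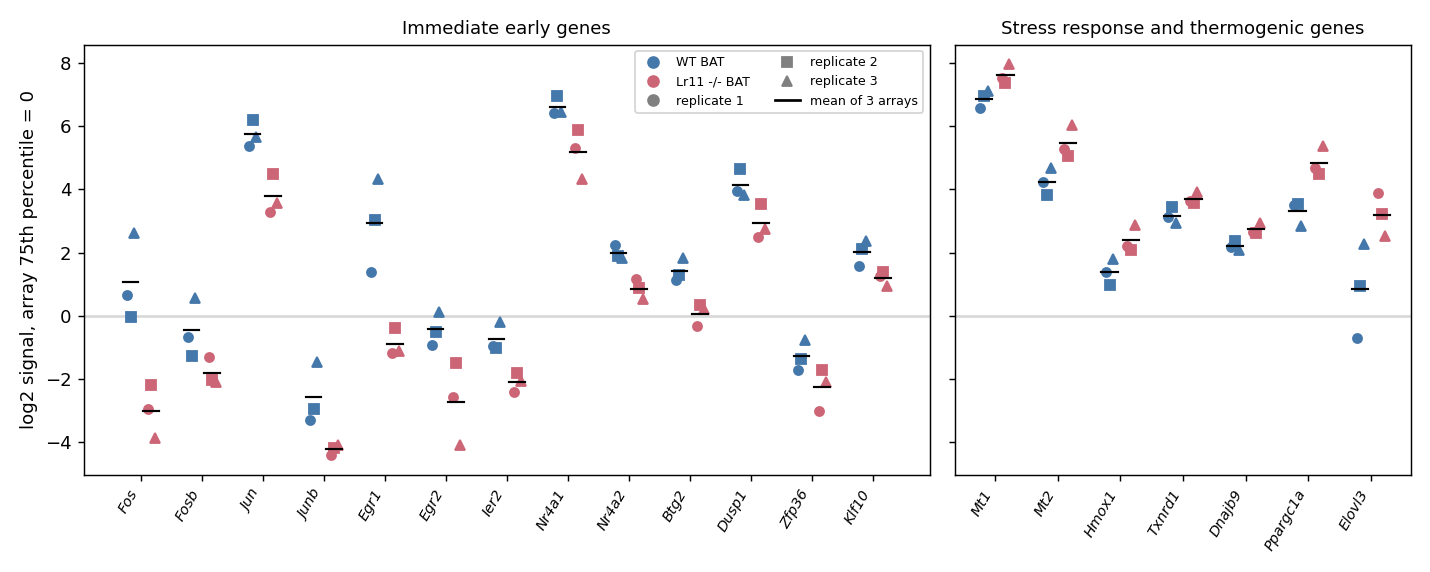
Log2 signal relative to the array's 75th percentile, on each of the 6 BAT arrays, for 13 immediate early genes (left) and 7 stress response and thermogenic genes (right), WT in blue and Lr11 -/- in red, the symbol shape giving the replicate and the bar the mean of 3 arrays. Every WT array lies above every Lr11 -/- array for the immediate early genes drawn, except where the values of Zfp36 nearly meet, and the order is the opposite on the right.

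Genes of the unfolded protein response and oxidative stress mostly had higher means, 16 higher and 3 lower, with differences from -1.73 to 1.22. Of 19 tested genes 5 were higher and none lower at an unadjusted p of 0.05 in limma, beside 4.58% of all genes higher, with a median of 0.28, and 8 were without overlap, all higher, beside 8.77%. Mt2, a metallothionein that binds zinc and is induced by metals, glucocorticoids and oxidants, read 4.22, 3.82 and 4.69 against 5.29, 5.06 and 6.03 (1.22, SE 0.31, adjusted p = 0.37, limma). Its neighbour Mt1 read 6.57, 6.94 and 7.11 against 7.52, 7.35 and 7.96 (0.74, adjusted p = 0.46, limma). Hmox1, haem oxygenase, read 1.39, 0.97 and 1.81 against 2.21, 2.09 and 2.88 (1.0, adjusted p = 0.43, limma). Txnrd1, thioredoxin reductase, differed by 0.54 and Dnajb9, an endoplasmic reticulum chaperone, by 0.53. With the muscle mean as a covariate 5 were higher and 1 lower, where the backgrounds are 3.89% and 3.81%.

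The promoters of the 2 metallothioneins are shown because they stood apart together on these arrays and lie side by side on chromosome 8. Both are RefSeq sequences of GRCm38.p6, from 250 bases before to 50 bases after the start. Capitals mark the pattern TGCNCNC on either strand. It is looser than the core of the metal response element, TGCRCNC with R for A or G, so some marked stretches are not cores. The strict core was not counted.
Mt1: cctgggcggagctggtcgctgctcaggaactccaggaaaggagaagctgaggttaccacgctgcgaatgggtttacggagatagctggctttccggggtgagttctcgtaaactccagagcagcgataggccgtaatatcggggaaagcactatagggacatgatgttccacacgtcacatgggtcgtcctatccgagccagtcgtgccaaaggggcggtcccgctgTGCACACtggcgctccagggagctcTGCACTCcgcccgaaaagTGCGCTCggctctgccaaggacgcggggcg
Mt2: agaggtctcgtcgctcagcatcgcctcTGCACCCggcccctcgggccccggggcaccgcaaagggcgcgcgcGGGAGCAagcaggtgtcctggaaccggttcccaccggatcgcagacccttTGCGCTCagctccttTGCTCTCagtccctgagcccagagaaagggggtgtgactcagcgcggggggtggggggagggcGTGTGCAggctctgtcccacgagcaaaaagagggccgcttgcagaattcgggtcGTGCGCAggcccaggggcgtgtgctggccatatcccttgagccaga
The Mt1 window, chr8:94178839-94179138 on the forward strand, held 3 matches and the Mt2 window, chr8:94172368-94172667 on the forward strand, held 6. Of 32851 promoters of this length, 51.0% held at least 1 match, 7.1% at least 3 and 0.225% at least 6. A match describes the letters and does not show that a factor binds.

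Immediate early genes, which are switched on within minutes by hormones, cAMP or growth factors, were lower in Lr11 -/- BAT as a group of values. This list of 36 genes was put together after the leading genes had been seen, so its counts are a description without a test. Of 32 tested genes 15 were lower and 1 higher at an unadjusted p of 0.05, beside 3.28% lower and 4.58% higher over all genes. The same 15 genes were lower without overlap, beside 4.52%, and the median difference was -0.79. None passed adjustment. With the muscle mean as a covariate 16 were lower and none higher, where the backgrounds are 3.81% and 3.89%.

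Fos, a subunit of the AP-1 transcription factor, read 0.66, -0.04 and 2.63 in WT and -2.95, -2.18 and -3.88 in Lr11 -/- BAT, a difference of -4.08 (SE 0.71, adjusted p = 0.18, limma). Egr1, a zinc finger factor, read 1.40, 3.03 and 4.34 against -1.17, -0.40 and -1.10, a difference of -3.81 (SE 0.67, adjusted p = 0.18, limma). Jun, the partner of Fos, read 5.36, 6.20 and 5.67 against 3.28, 4.49 and 3.57 (-1.96, adjusted p = 0.19, limma). The WT arrays varied widely among themselves for Fos and Egr1, with replicate 3 highest in both, yet all stood above the Lr11 -/- arrays. The nuclear receptors Nr4a1 and Nr4a2 differed by -1.43 and -1.14, Junb, above background on 2 Lr11 -/- arrays, by -1.65, Fosb by -1.35, Egr2 by -2.29, Ier2 by -1.37 and the growth brake Btg2 by -1.34. Dusp1, a phosphatase that turns off MAP kinases, read 3.95, 4.65 and 3.81 against 2.48, 3.55 and 2.74 (-1.22, adjusted p = 0.41, limma). Zfp36, which destabilises mRNAs, differed by -0.99 and Klf10 by -0.81.

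Promoters of 3 of these genes are shown since cAMP acts on many genes of this kind through the cAMP response element, whose full form is TGACGTCA and whose core is TGACG. The windows are RefSeq sequences of GRCm38.p6, from 250 bases before to 50 bases after the start, and capitals mark the core or the full form on either strand.
Fos: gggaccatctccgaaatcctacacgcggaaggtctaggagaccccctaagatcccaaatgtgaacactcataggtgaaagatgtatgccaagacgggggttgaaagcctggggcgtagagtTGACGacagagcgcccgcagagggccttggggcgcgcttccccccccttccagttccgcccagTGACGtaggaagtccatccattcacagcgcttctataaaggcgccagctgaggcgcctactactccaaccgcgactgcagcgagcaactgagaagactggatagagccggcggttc
Nr4a1: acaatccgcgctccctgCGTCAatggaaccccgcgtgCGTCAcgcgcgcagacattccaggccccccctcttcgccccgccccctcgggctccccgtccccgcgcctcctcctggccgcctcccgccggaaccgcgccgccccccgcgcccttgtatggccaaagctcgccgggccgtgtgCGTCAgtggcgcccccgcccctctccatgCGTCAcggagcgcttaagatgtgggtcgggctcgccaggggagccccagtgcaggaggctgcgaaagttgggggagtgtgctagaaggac
Dusp1: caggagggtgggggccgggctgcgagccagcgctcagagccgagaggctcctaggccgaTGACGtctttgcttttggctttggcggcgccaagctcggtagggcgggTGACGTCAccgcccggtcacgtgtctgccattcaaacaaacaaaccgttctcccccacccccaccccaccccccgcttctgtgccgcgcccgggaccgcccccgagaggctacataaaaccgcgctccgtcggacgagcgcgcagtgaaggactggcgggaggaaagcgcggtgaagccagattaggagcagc
The Fos window, chr12:85473640-85473939 on the forward strand, held 2 cores, and the Nr4a1 window, chr15:101266596-101266895 on the forward strand, 4. The Dusp1 window, chr17:26508423-26508722 on the reverse strand, held 3 core matches at only 2 marked stretches. The full form reads the same on both strands, so its 1 stretch counts as 2 overlapping cores. The shares below were counted in the same way. Over 32851 promoters 20.8% held at least 1 core, 5.01% at least 2, 1.03% at least 3 and 0.231% at least 4, and 1.79% held the full form. Of the 15 lower genes 12 had a promoter in the table, of which 9 held a core and 2 the full form. Of all 32 tested genes 26 had one, of which 15 held a core and 3 the full form.

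Smaller sets gave single genes. In the circadian clock list of 18, Per2 differed by 1.33 and Per3 by -0.99, both core clock repressors, with adjusted p of 0.53 and 0.59 in limma. Among vessel genes, Cnn1, a smooth muscle protein, differed by 1.0 and Pdgfrb, the pericyte receptor, by -0.48. Ngfr, the neurotrophin receptor p75 of Schwann cells, read -1.37, -0.88 and -1.40 against -1.80, -1.88 and -2.22 (-0.75, adjusted p = 0.4, limma). None of 20 extracellular matrix genes and none of 17 cholesterol synthesis genes reached an unadjusted p of 0.05, with medians of 0.16 and -0.12. That level was reached by 7.85% of all tested genes, 4.58% higher and 3.28% lower. Adjusted for the muscle mean, 1 clock gene was higher and none lower, 1 vessel gene was higher and 2 were lower, 1 nerve and Schwann cell gene was higher and 2 were lower, and 1 matrix gene was higher. That fit gave 3.89% higher and 3.81% lower over all tested genes.

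In scWAT of the same genotypes, 38 of the 40 called probes differed in the direction seen in BAT, as 61.4% of all probes tested in BAT did. Sorl1 read 0.91, 0.96 and 1.15 in WT and -3.57, -3.56 and -2.87 in Lr11 -/- scWAT. Of the 40, 14 were without overlap in that direction, where 13.9% of all probes tested in BAT were (19.9% in either direction), and none in the opposite direction. Of the 33 that could be tested in scWAT, 15 reached an unadjusted p of 0.05 in limma in the BAT direction, where 10.6% of the probes tested in both depots did. Lr11 -/- scWAT replicate 1 lay near the WT arrays at several of the called probes. Btbd9 read -1.32, -0.57 and -1.02 in WT and -1.37, 1.36 and 1.27 in Lr11 -/- scWAT, and Ermard -1.25, -2.14 and -1.69 against -2.07, 0.71 and 0.86. Cdsn read 3.61, 0.30 and -0.37 against 1.45, -3.30 and -2.97. At 27 of the 40 called probes that array was nearer to the WT mean than to the mean of the other 2 Lr11 -/- arrays, as at 58.1% of all tested probes. Without it 31 of the 40 were free of overlap in the BAT direction, where 32.2% of all tested probes were. The array was singled out from its values at these probes, so this count is a description only. Its muscle mean was 6.28 and that of WT scWAT replicate 3 was 8.18, against -2.09 to -1.66 on the other scWAT arrays. The part of muscle in these scWAT values was not tested. In that depot Nxpe4 read 0.04, -1.22 and -1.30 against -4.38, -5.73 and -6.32, and Apoc3 -1.57, -4.93 and -0.41 against 2.08, 2.43 and 2.69. For these genes the genotypes were apart in both depots. Il18 read -0.81, 0.29 and -0.24 against 0.38, -0.22 and -0.09 in scWAT, a difference of 0.28 beside 2.55 in BAT. Rbp4 read 6.81, 1.93 and 4.70 against 5.37, 4.62 and 5.55, a difference of 0.70 with a wide WT spread. The genotype difference was tested against the depot in a limma interaction over all 12 arrays, and no probe passed adjustment (smallest adjusted p = 0.17), while 3537 reached an unadjusted p of 0.05. The unadjusted p for Il18 was 0.00017 in that limma test and its adjusted p was 0.24, so a difference between the depots is not shown for it.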

How the data were processed

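RNA of each sample was labelled and hybridised by the authors to 1-colour Agilent mouse arrays and read with Feature Extraction 10.10, per the labels. The deposited scanner files hold spot intensity, already background-corrected by that software. Groups came from the source labels. Outlier and control spots were left out, log2 of the deposited processed intensity was reduced by the 75th percentile of each array, and replicate spots were averaged. Probes that cleared background in every replicate of one or both genotypes were fitted in limma 3.58.1 (R 4.3.3) with 1 mean per genotype and Benjamini-Hochberg adjustment over all tested probes. Of 28685 probes with a RefSeq accession, 27235 were named through a RefSeq gene table, and a gene was read from its brightest tested probe unless another probe is stated.

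Named are Sorl1, the 10 genes of smallest p in each direction without overlap, every gene with a called probe, list members at an unadjusted p under 0.05 (at most 6) or else the first of a list, and neighbours of Sorl1. A few genes that meet this rule are not reported here. A few other list members known from the study's question (Bmp7, Id1, Sort1, Adipoq and Lep) and the 2 lists of immediate early and branched-chain amino acid genes were chosen after values were seen. The members and all lists were chosen with earlier results of these data known.

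Replicate 1 of both genotypes lay on 1 slide of a first array series and replicates 2 and 3 on 1 slide of a second, so slide and series cannot be told apart, and series was used as a block in an alternative. The fit was tested on simulated data for 29921 probes of this comparison: of 50 probes changed at each size, 34% were called at a log2 change of 1, 88% at 2, 94% at 3 and 98% at 4. Of the unchanged probes 6 were called. The noise was drawn for each probe on its own, so variation that many probes share, such as that of muscle or series, was not simulated. Other alternatives changed the scaling, background correction, filter, variance model, arrays in the fit and muscle adjustment, or left out arrays. Further software was Python 3.11.15 and matplotlib 3.10.9.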

Additional observations from a re-analysis of the deposited data

How the results depend on the processing

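All 40 called probes kept their direction under every alternative that tested them, but their number varied. It was 73 at an adjusted p of 0.1, 61 with the array median subtracted, 6 without a filter, 24 with probes above background on all 6 arrays, 6 over all 12 arrays, and 0 with the second series alone (limma, 1830 at an unadjusted p of 0.05). Leaving out 1 array gave 11 to 27, with 11 without Lr11 -/- replicate 3, 15 without WT replicate 2, 16 without WT replicate 1, 18 without Lr11 -/- replicate 2 and 19 without WT replicate 3. Without the 3 arrays of high muscle signal, an alternative chosen after seeing the data that sets 1 WT array, assumed to vary like the others, against 2 knockout arrays, 1 probe was called. With the muscle covariate it was 27. Probes at an unadjusted p of 0.05 numbered 631 over all 12 arrays and 1525 to 2566 with 1 array left out. Without scaling, 39.9% of them were higher, against 56.1%. Probes without overlap numbered 6265 with series as a block and 6033 with the muscle covariate, both on all 6 arrays. Fits with fewer arrays gave 10104 in the second series, 5407 to 7962 with 1 array left out and 19439 without the high-muscle arrays. With fewer arrays per genotype more probes are free of overlap by chance alone. The counts from fewer arrays therefore cannot be compared with the 3711 of the main fit, and no conclusion is drawn from them. Sorl1 passed with the array median (-3.58), no scaling (-3.69), normexp (-2.46), the muscle covariate (-4.03), array weights (-3.57) and all 12 arrays (-3.63), and lay between -3.91 and -3.14 with 1 array left out, passing without Lr11 -/- replicate 1. The muscle median lay between -5.24 and -1.34 and the thermogenic median between 0.18 and 0.48 with 1 array left out, and they were 0.23 and 0.05 without the high-muscle arrays. The interaction with depot gave 1526 probes with array weights and 0 to 1193 with 1 array left out, 1193 without Lr11 -/- scWAT replicate 1 and 236 without WT scWAT replicate 3. The cause was not tested.

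Over all named genes and alternatives, 2402 values kept their direction and side of the threshold, 230 lost a call, 18 gained one and 19 changed sign. The muscle covariate turned Acta1 (0.29), Pvalb (0.10), Tnnt3 (0.27) and Adrb3 (0.00). The low-muscle arrays turned Acta1 (0.93), Pvalb (0.29), Tnnt3 (0.66), Adrb3 (-0.53), Prdm16 (-0.29) and Ucp1 (-0.13). Adrb3 was -0.02 with array weights and -0.10 without WT replicate 3, Prdm16 -0.01 without WT replicate 3, and Bmp8b -0.02 without Lr11 -/- replicate 2. The highest values with 1 array left out were 0.51 for Adrb3, 0.47 for Prdm16, 0.81 for Bmp8b and 0.25 for Ucp1. Bmp7 was 0.25 in the first series alone. Cidea was 0.00 and Ucp1 -0.01 in the second series, and -0.03 and -0.04 without WT replicate 1. No paired analysis was possible because the labels give no replicate numbers, and the numbers used here only name the arrays. Blocking on the series gave 43 calls.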

Other observations

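Genes that break down branched-chain amino acids, a fuel of active brown fat, had higher means in Lr11 -/- BAT. The list of 24 genes was put together after Bckdhb and Bcat2 had been seen among the leading values, so the counts are a description without a test. At an unadjusted p of 0.05 in limma 5 were higher and none lower, beside 4.58% of all tested genes higher, and 8 were without overlap, all higher, beside 8.77%. The median difference was 0.28 against 0.05 over all tested genes. Bckdhb, the E1 beta subunit of the branched-chain ketoacid dehydrogenase, read 5.75, 6.28 and 5.82 in WT and 7.29, 7.25 and 7.24 in Lr11 -/- BAT, a difference of 1.31 (SE 0.18, adjusted p = 0.069, limma). Bcat2, the mitochondrial transaminase of the first step, read 2.37, 2.38 and 2.38 against 3.46, 3.22 and 3.48, a difference of 1.01 (SE 0.14, adjusted p = 0.074, limma). Both were separated by more than the spread within a genotype, and both missed the threshold. Acad8, of valine breakdown, differed by 0.79 (adjusted p = 0.4, limma), and Ivd, of leucine breakdown, and Aldh6a1, of valine breakdown, by 0.41 each. With the muscle mean as a covariate 3 were higher and none lower, where the backgrounds are 3.89% and 3.81%.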
